A study of Homo sapiens with 12 samples.

Results

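Interferon-stimulated genes were followed through a comparison of H3K9 acetylation in MOLM-13 cells given WM-1119 or DMSO. The list holds 40 genes. Each gene was represented by the region with the highest mean over the 6 libraries among those within 1 kb of either annotated end of the gene. By this rule 35 of the 40 genes had a region, and these were 33 distinct regions of 47648 in all, since RSAD2 and CMPK2 share a region and so do PARP9 and DTX3L. ISG20, IFITM3, IFI27, IFI44 and IFI44L had none.

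MOLM-13 cells come from a human acute myeloid leukaemia, and WM-1119 inhibits KAT6A, an enzyme that acetylates histones. The series sets out to see what blocking KAT6A does to chromatin in these cells. Chromatin immunoprecipitation sequencing of H3K9ac, the acetyl mark on lysine 9 of histone H3 that is found at active promoters, covered 3 libraries after 4 days of WM-1119 at 4 µM and 3 libraries with DMSO. The 6 input libraries were not analysed here, this single line gave every sample, and nothing in the labels tells replicate cultures from repeat preparations of 1 culture, so p-values measure a spread that may be technical.

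Interferons act through cell-surface receptors, JAK kinases and STAT proteins. Type I interferon assembles a factor, with STAT2 and IRF9 among its subunits, that binds the interferon-stimulated response element in the promoters of its target genes. The targets include sensors of foreign RNA, proteins that degrade or block viral RNA, membrane proteins that hinder viral entry and release, and feedback inhibitors. A number of them have basal activity in unstimulated cells.

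Depth and background differed between libraries. The values corresponded to 4542322 to 12705349 reads in regions in the WM-1119 libraries, against 719329, 1298443 and 7481097 reads in DMSO replicates 1, 2 and 3. Regions with a mean below that of the median region took 2.19% to 3.35% of the signal in the WM-1119 libraries, against 8.95%, 7.19% and 2.35% in DMSO replicates 1, 2 and 3. A count of 0 allows up to 0.236 to 0.660 CPM in the WM-1119 libraries and up to 4.17, 2.31 and 0.401 CPM in DMSO replicates 1, 2 and 3. CPM is reads per 1000000 over the listed regions, and these limits cover counting error only. The label of the line was checked at gene ends. All 10 genes of a list of MOLM-13 and myeloid markers had a region, with MYB, FLT3 and CEBPA at 70.4, 70.2 and 61.1 CPM per kb of region and CD33 at 12.9 CPM per kb. Of the lymphoid, erythroid and epithelial markers 4 of 7, 1 of 5 and 2 of 3 had a region, at 4.68 to 12.9 CPM per kb.

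The promoters of 8 members are shown for their sequence, and no link between sequence and the values below was tested. They belong to the 4 members with the highest mean and to the 2 members with the smallest p in each direction, among members whose region overlaps a promoter window of the RefSeq table (GRCh38.p14). Each line gives the 250 bases before the start, 5′ to 3′ on the strand of the gene. Capitals mark each match to the core of the interferon-stimulated response element, which is GAAA, any 2 bases and GAAA again, on either strand. On the opposite strand it reads TTTC, 2 bases and TTTC, and overlapping matches run together.
BST2 promoter, chr19:17405631-17405880 (- strand): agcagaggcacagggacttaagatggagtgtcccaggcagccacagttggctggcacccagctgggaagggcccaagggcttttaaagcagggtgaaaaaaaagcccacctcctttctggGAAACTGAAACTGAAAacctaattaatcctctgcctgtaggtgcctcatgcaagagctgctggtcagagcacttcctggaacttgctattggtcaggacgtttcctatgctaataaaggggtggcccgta
IRF1 promoter, chr5:132490774-132491023 (- strand): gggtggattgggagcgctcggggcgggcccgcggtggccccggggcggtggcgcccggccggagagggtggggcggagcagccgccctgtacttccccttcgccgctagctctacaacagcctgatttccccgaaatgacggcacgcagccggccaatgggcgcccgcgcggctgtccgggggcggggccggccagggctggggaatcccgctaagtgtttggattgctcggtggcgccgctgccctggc
ADAR promoter, chr1:154627998-154628247 (- strand): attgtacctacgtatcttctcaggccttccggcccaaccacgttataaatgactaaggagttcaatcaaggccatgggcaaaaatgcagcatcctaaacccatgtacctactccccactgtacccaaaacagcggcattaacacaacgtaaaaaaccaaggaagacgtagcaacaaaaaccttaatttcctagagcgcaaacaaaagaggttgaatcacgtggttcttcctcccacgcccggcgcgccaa
IFIH1 promoter, chr2:162318685-162318934 (- strand): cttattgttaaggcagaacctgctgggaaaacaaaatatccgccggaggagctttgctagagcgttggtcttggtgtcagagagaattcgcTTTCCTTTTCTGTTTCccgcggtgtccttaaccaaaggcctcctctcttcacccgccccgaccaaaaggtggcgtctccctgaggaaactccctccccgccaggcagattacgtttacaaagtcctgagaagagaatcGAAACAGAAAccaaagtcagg
HERC6 promoter, chr4:88378602-88378851 (+ strand): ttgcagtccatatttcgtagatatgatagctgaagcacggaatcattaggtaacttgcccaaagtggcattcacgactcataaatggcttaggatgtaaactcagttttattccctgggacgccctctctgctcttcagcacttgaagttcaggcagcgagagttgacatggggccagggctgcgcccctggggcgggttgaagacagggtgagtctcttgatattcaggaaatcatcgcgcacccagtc
PARP14 promoter, chr3:122680589-122680838 (+ strand): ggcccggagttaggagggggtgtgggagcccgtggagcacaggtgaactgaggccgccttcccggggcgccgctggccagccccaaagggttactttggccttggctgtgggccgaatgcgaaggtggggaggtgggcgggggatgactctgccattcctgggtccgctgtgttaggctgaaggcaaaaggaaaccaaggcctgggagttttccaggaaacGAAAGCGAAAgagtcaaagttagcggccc
IFITM1 promoter, chr11:313790-314039 (+ strand): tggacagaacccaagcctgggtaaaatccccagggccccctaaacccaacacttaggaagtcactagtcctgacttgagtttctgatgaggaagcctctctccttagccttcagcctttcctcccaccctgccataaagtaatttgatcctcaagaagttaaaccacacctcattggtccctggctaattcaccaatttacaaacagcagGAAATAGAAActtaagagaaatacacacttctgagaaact
SAMD9 promoter, chr7:93117980-93118229 (- strand): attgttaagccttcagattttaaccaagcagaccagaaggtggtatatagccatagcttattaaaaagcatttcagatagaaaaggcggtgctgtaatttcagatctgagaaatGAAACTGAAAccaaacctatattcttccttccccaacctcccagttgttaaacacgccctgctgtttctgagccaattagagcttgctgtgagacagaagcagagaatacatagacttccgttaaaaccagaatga

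The core motif was frequent in these promoters. A window of 300 bases, from 250 before to 50 after the start, was listed for 32 of the 40 members, and 20 of the 32 (62.5%) held this core on at least 1 strand, against 3.57% of all 35116 listed windows. TTCNNNGAA, the gamma-activated site, was found in 8 of the 32 (25%), against 7.66% of all windows. IRF7, USP18, OAS2, OASL, IFIT2, MX2, IFITM2 and TRIM22 had no listed window. BST2 had a pair of overlapping cores, IFIH1 had 3, PARP14 and SAMD9 had 1 each, and HERC6, IRF1 and ADAR had none in the window. A second IFITM1 core crosses the start, so the printed bases hold only its first part, which is not in capitals. A match describes the letters of the window and not binding.

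The members differed widely in H3K9ac. Per kb of region the mean over all libraries ran from 5.86 CPM at IFITM1 to 32.0 CPM at PARP9 and DTX3L, with a median of 13.8 CPM, against a median of 25.7 CPM per kb over 10275 other regions that stand for a coding gene. Only 5 of the 33 regions lay above that median: those of PARP9 and DTX3L, ADAR, IRF1, IFIH1 and EIF2AK2. The lowest per kb were IFITM1, IFIT1, HERC5 and OAS2, at 5.86, 6.37, 7.46 and 7.50 CPM, within the range of the lymphoid, erythroid and epithelial markers. Further members, up to USP18 at 12.6 CPM per kb, also lay in that range, whose upper end was CD79A at 12.9 CPM per kb. Without length correction the regions ran from 1.79 to 69.8 CPM, and their width from 253 to 3310 bp.

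**Figure D1:**
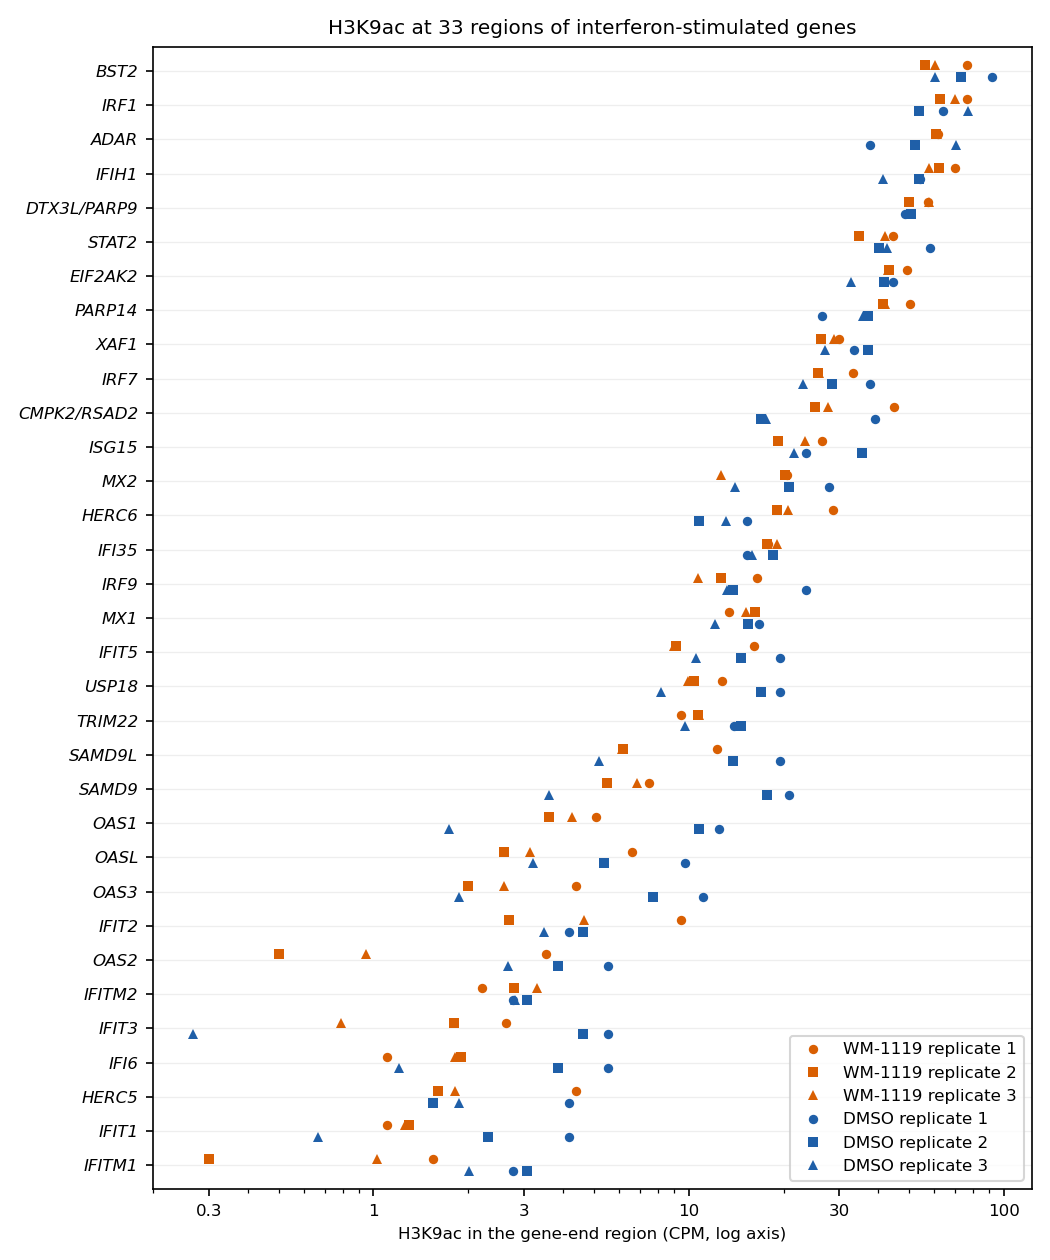
H3K9ac in CPM (log axis) in each of the 33 regions that stand for interferon-stimulated genes, ordered by the mean over 6 libraries, with WM-1119 libraries in orange above DMSO libraries in blue. BST2 is highest at 69.8 CPM and IFITM1 lowest at 1.79 CPM, and in weak regions DMSO replicates 1 and 2 tend to lie to the right of DMSO replicate 3.

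The stronger regions covered the start of the gene, and several weak ones lay upstream of it. Of 27 members with both a region and a window, 22 had a region over the start, against 84.6% of 9994 other coding genes. All 13 members of at least 20 CPM covered it, against 90.6% of other genes of that strength. Of the 6 members under 5 CPM 2 covered it, against 29.7% of other genes that weak. IFIT1, HERC5, IFITM1 and IFI6 had regions that ended 141, 54, 115 and 87 bp before the start, and the SAMD9L region began 18 bp after it. IFIT1, HERC5 and SAMD9L had 2 listed regions within 1 kb of an end and IFI6 had 3. Only the strongest was placed, so a weaker region may lie over these starts. All 6 members under 5 CPM held the response element core. It was held by 3 of 8 members of 5 to 20 CPM and 6 of 13 of at least 20 CPM. Of other genes in these 3 classes 3.98%, 2.56% and 2.38% held it. The windows of the 27 held a median of 14 CpG dinucleotides, against 27 in the other genes with a region. BST2 held 2 and RSAD2 held 45.

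**Figure D2:**
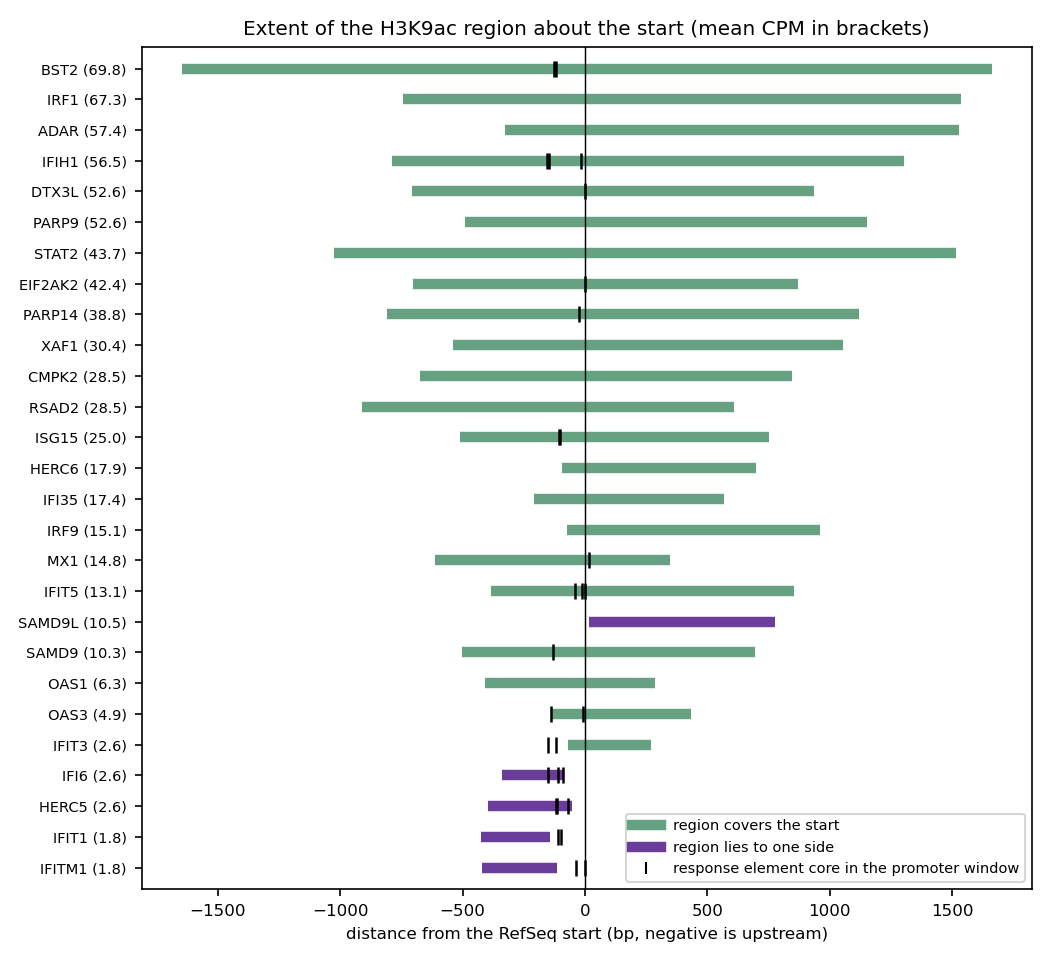
Extent of the H3K9ac region about the RefSeq start, in bp, for 27 members with a listed promoter window, ordered by mean CPM (in brackets). Only the strongest region within 1 kb of an end of each gene is drawn. Green bars cover the start, purple bars lie to one side, and black ticks mark the response element core within the window from 250 bases before to 50 after the start; 22 of the 27 bars cross the start.

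ISG20, which encodes an exonuclease that degrades viral RNA, had no region by the 1 kb rule because the RefSeq promoter window that was listed for it has a start 3384 bp inside the annotated gene end. A region over that start, at chr15:88638181-88639386, held 9.47, 11.1 and 9.44 CPM in WM-1119 replicates 1, 2 and 3, against 12.5, 16.2 and 5.21 CPM in DMSO replicates 1, 2 and 3. It was found after the values were seen and enters no count. The start of IFITM3 was 5640 bp from the nearest region, and those of IFI27, IFI44L and IFI44 were 18308, 129045 and 158386 bp away. Their H3K9ac, if any, was not in the listed regions.

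No member region passed the test of WM-1119 against DMSO. In limma, fitted to log2(CPM + 1) over the 44763 regions whose mean reached 1 CPM and adjusted by the Benjamini-Hochberg method, 0 of the 33 regions had an adjusted p under 0.05, where 0.0603% of all tested regions and 0.00973% of other regions standing for a coding gene did. By the unadjusted p at 0.05, HERC6 and PARP14 were higher and 0 members lower, against 9.50% and 1.81% of other coding gene regions and 2.58% and 10.8% of all regions. In edgeR's quasi-likelihood test on the recovered reads of 5 libraries 0 passed as well (0.00% of all regions), with 3 higher and 0 lower by its unadjusted p at 0.05, against 2.01% and 0.292% of other coding gene regions and 0.782% and 3.96% of all regions. In 3 of the 33 regions all WM-1119 libraries lay above all DMSO libraries, and in 1 all lay below. The shares were 13.4% and 3.25% of other coding gene regions and 3.76% and 13.2% of all regions. Members under 5, of 5 to 20 and of at least 20 CPM gave 0, 1 and 2 regions above and 1, 0 and 0 below. Of other coding gene regions in these classes 0.893%, 2.39% and 16.9% lay above and 7.59%, 6.49% and 2.16% below. By limma's unadjusted p at 0.05 these other regions had 0.446%, 0.478% and 12.2% higher and 4.58%, 5.19% and 0.872% lower. The smallest adjusted p among members was 0.340. The count of 0 rested on DMSO replicate 3. Without that library 10 member regions passed, 2 higher and 8 lower. That fit called 43.9% of all regions, 2409 higher and 17228 lower, and 27.8% of other coding gene regions, whose directions were not counted. With array weights the count over members was 23, where 78.2% and 66.7% of those regions passed. Without DMSO replicates 1 and 2, where the spread comes from the WM-1119 libraries alone and the lone DMSO library is assumed to vary like them, it was 0, and 0.0514% and 0.146% of those regions passed. Data were simulated at the depths of these libraries, with 43844 regions fitted. In them the test recovered 11% of 2-fold and 87% of 4-fold changes in regions of at least 10 CPM. The simulated spread was set by hand and left out the background differences between libraries. Changes of about 2-fold were mostly missed there, and the share detectable in these data is not known.

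The difference between groups followed the strength of the region, in members as in other genes. Of the 33 regions 12 were higher and 21 lower in WM-1119 by the sign of the log2 change, with a median of -0.20, against a median of 0.12 over other coding gene regions (32.8% lower) and -0.47 over all tested regions (77.2% lower). The 12 members of at least 20 CPM had a median log2 change of 0.12, against 0.17 for other coding gene regions of that strength. The 12 members of 5 to 20 CPM had -0.31, against -0.22 for other regions, and the 9 members under 5 CPM had -0.46, against -0.45 for other regions. Without DMSO replicates 1 and 2 the median over members was 0.25, with 26 higher and 7 lower, and over all regions it was 0.08. Quantile normalization, median centring and cyclic loess gave 0.10, 0.57 and 0.08 over members. By sign 22, 30 and 25 of the 33 regions were then higher. In edgeR on 5 libraries 26 were higher and 7 lower. Only 8 of the 33 kept the same sign over 18 settings, 6 higher and 2 lower. The direction of most members thus depended on the processing. With 1 library left out the median over members ran from -0.33, without DMSO replicate 3, to -0.04, without DMSO replicate 1, and it was -0.13 without WM-1119 replicate 2.

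**Figure D3:**
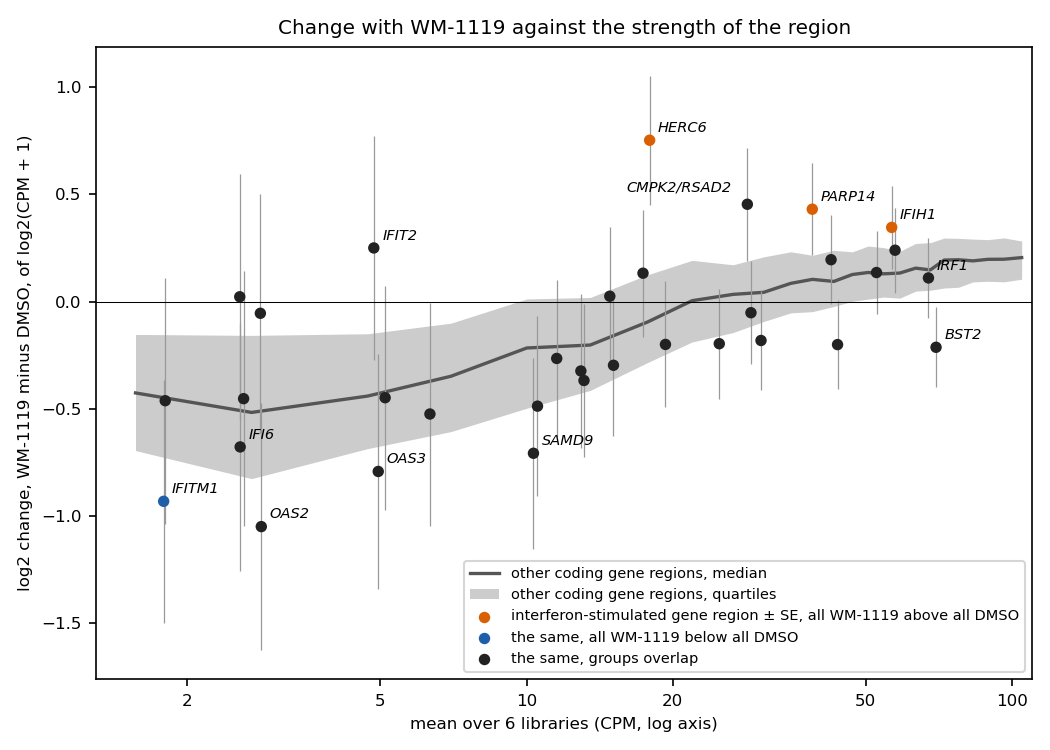
Log2 change of H3K9ac (WM-1119 minus DMSO, on log2(CPM + 1), with limma's SE) against the mean over 6 libraries in CPM (log axis) for the 33 member regions. The grey line and band give the median and quartiles of other coding gene regions in bins of the mean. HERC6 at 0.75 stands above the band and OAS2 at -1.05 below it, each with an adjusted p of at least 0.340.

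Each region was then set against the 200 other coding gene regions nearest to it in mean, library by library, as a description with no test. On the log2(CPM + 1) scale the median difference of the 33 members was 0.09, -0.14 and -0.03 in WM-1119 replicates 1, 2 and 3, against 0.10, 0.00 and -0.08 in DMSO replicates 1, 2 and 3. Members above their matched median numbered 22, 12 and 13 in WM-1119 replicates 1, 2 and 3, against 19, 14 and 13 in DMSO replicates 1, 2 and 3. The libraries of the groups were interleaved. The WM-1119 minus DMSO difference of these values had a median of -0.08 over members, with 14 above 0 and 19 below. This median was 0.0092 without DMSO replicate 1, -0.011 without DMSO replicate 2, -0.023 without WM-1119 replicate 3 and -0.038 without WM-1119 replicate 2. After matching, the groups did not overlap in 2 members, HERC6 and PARP14, both higher in WM-1119, and in 0 members lower in WM-1119, against 7.09% and 7.34% of other coding gene regions.

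**Figure D4:**
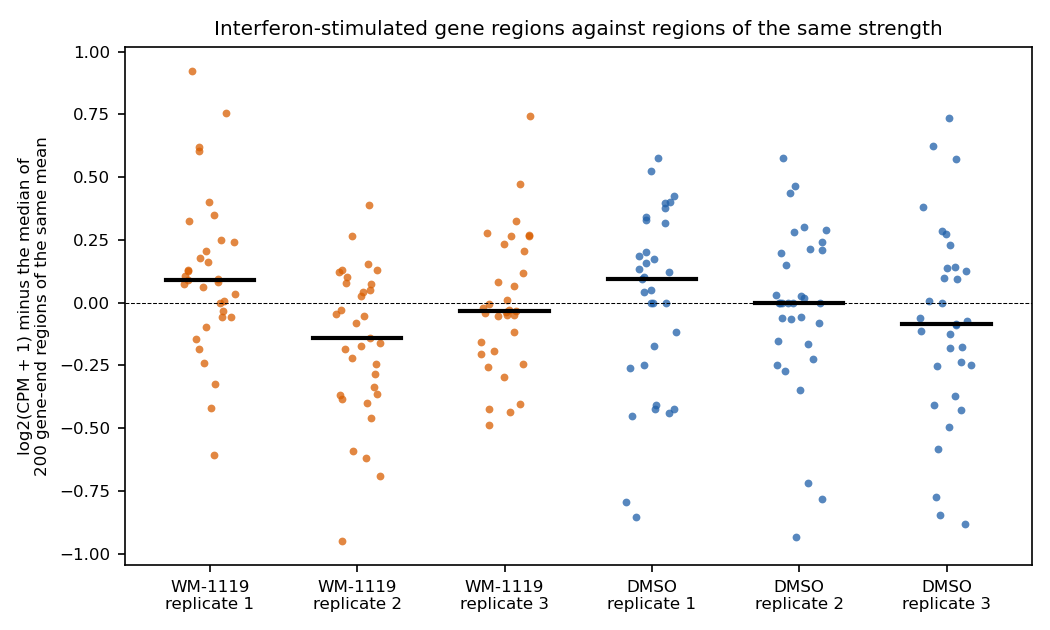
Difference on the log2(CPM + 1) scale between each of the 33 member regions and the median of the 200 other coding gene regions nearest in mean, in WM-1119 libraries (orange) and DMSO libraries (blue). Black bars are medians over members, which run from -0.14 to 0.09 in WM-1119 libraries and from -0.08 to 0.10 in DMSO libraries.

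Of the regulators of the response IRF1, STAT2 and IRF7 were stronger than IRF9 and USP18. IRF1, a transcription factor induced by interferons, held 76.2, 62.6 and 70.2 CPM in WM-1119 replicates 1, 2 and 3, against 63.9, 53.9 and 77.0 CPM in DMSO replicates 1, 2 and 3. STAT2, a subunit of the factor that binds the response element, held 44.5, 34.8 and 42.0 CPM with WM-1119, against 58.4, 40 and 42.6 CPM with DMSO. IRF7, a transcription factor that amplifies the production of type I interferon, held 33.2, 25.7 and 25.9 CPM with WM-1119, against 37.5, 28.5 and 23.1 CPM with DMSO. The groups overlapped at all 3 genes. IRF9, the DNA-binding partner of STAT2, averaged 13.3 ± 2.95 CPM with WM-1119 and 16.9 ± 5.83 CPM with DMSO (SD, n = 3 each). USP18, a protease that removes ISG15 from proteins and restrains receptor signalling, averaged 11.0 ± 1.53 CPM with WM-1119 and 14.9 ± 5.94 CPM with DMSO (SD, n = 3 each). None of the 5 regulators passed, and the groups overlapped at each.

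Among the genes that sense, edit or degrade RNA, 3 were strong and the OAS genes were weak. IFIH1, which encodes the double-stranded RNA sensor MDA5, held 69.8, 62.3 and 57.7 CPM in WM-1119 replicates 1, 2 and 3, against 54.2, 53.9 and 41.3 CPM in DMSO replicates 1, 2 and 3. The groups did not overlap, but the log2 change of 0.35 ± 0.19 (SE) did not pass (limma adjusted p = 0.389), and the 200 regions of its strength had a median of 0.13. ADAR, which edits adenosine to inosine in double-stranded RNA, held 61.6, 61.1 and 61.3 CPM with WM-1119, against 37.5, 52.4 and 70.7 CPM with DMSO. The WM-1119 values lay close together and inside the spread of the DMSO values. EIF2AK2, the gene of the kinase PKR, which stops translation on binding double-stranded RNA, held 49.3, 43.3 and 43.0 CPM with WM-1119, against 44.5, 41.6 and 32.7 CPM with DMSO, and the groups overlapped.

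The OAS enzymes make oligoadenylates that activate RNase L, and OAS1, OAS3 and OAS2 lie side by side on chromosome 12. OAS2 held 3.52, 0.500 and 0.944 CPM in WM-1119 replicates 1, 2 and 3, against 5.56, 3.85 and 2.67 CPM in DMSO replicates 1, 2 and 3. OAS2 differed by -1.05 ± 0.58 on the log2 scale (SE; limma adjusted p = 0.387), with a median of -0.50 in regions of its strength. WM-1119 replicate 1 lay above DMSO replicate 3, so the groups overlapped. The DMSO values rested on 4, 5 and 20 reads, and the exact 95% Poisson interval of DMSO replicate 1 was 1.52 to 14.2 CPM, for counting error only. OAS3 held 4.40, 2.0 and 2.60 CPM with WM-1119, against 11.1, 7.70 and 1.87 CPM with DMSO. Its change on the log2 scale was -0.79 ± 0.55 (SE; limma adjusted p = 0.438), against a median of -0.41 in regions of its strength. All 3 WM-1119 libraries lay above DMSO replicate 3 and below the other DMSO libraries. OAS1 averaged 4.31 ± 0.733 CPM with WM-1119 and 8.34 ± 5.79 CPM with DMSO (SD, n = 3 each). OASL, a relative that enhances signalling by the sensor RIG-I, averaged 4.12 ± 2.17 CPM with WM-1119 and 6.11 ± 3.32 CPM with DMSO (SD, n = 3 each). The wide DMSO spread of OAS1 came from 12.5 and 10.8 CPM in replicates 1 and 2, against 1.74 CPM in replicate 3.

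The IFIT genes, whose proteins bind foreign RNA, form a cluster on chromosome 10 and were weak apart from IFIT5. IFIT5 held 16.1, 9.10 and 8.97 CPM in WM-1119 replicates 1, 2 and 3, against 19.5, 14.6 and 10.6 CPM in DMSO replicates 1, 2 and 3. IFIT2 held 9.47, 2.70 and 4.64 CPM with WM-1119, against 4.17, 4.62 and 3.48 CPM with DMSO. IFIT3 held 2.64, 1.80 and 0.787 CPM with WM-1119, against 5.56, 4.62 and 0.267 CPM with DMSO. The groups overlapped at each of the 4 genes. IFIT1, often used as a reporter of type I interferon signalling, averaged 1.22 ± 0.105 CPM with WM-1119 and 2.38 ± 1.75 CPM with DMSO (SD, n = 3 each), and its DMSO values came from 3, 3 and 5 reads.

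HERC6 had the smallest p of all members. It encodes a HECT-domain protein, and in mouse its counterpart is the main ligase that attaches ISG15 to proteins. Its region at chr4:88378759-88379551 held 28.6, 19.1 and 20.7 CPM in WM-1119 replicates 1, 2 and 3, against 15.3, 10.8 and 13.1 CPM in DMSO replicates 1, 2 and 3. Every WM-1119 library lay above every DMSO library. The means were 22.8 ± 5.09 CPM with WM-1119 and 13.1 ± 2.26 CPM with DMSO (SD, n = 3 each), a difference of 0.75 ± 0.30 on the log2 scale (SE; limma adjusted p = 0.340, unadjusted p = 0.0144). Regions of the same strength had a median of -0.09, with quartiles of -0.28 and 0.10. With 1 library left out the log2 change ran from 0.58 to 0.86, and it passed without DMSO replicate 3 (limma adjusted p = 0.0306, in a range over all alternatives of 1.04e-12 to 0.832). In DMSO replicates 1 and 2 the region held 11 and 14 reads. HERC5, the human ISG15 ligase gene next to it, held 4.40, 1.6 and 1.81 CPM with WM-1119, against 4.17, 1.54 and 1.87 CPM with DMSO, nearly the same in each group. Its log2 change was 0.02, against a median of -0.54 in regions of its strength. The DMSO values of HERC5 came from 3, 2 and 14 reads. ISG15, the ubiquitin-like modifier itself, held 26.4, 19.2 and 23.4 CPM with WM-1119, against 23.6, 35.4 and 21.7 CPM with DMSO, and the groups overlapped.

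RSAD2 and CMPK2 are neighbours whose starts lie in 1 region at chr2:6864972-6866493. RSAD2 encodes viperin, which makes a chain-terminating nucleotide from the CTP that the nucleotide kinase CMPK2 helps to supply. The region held 44.7, 25.2 and 27.6 CPM in WM-1119 replicates 1, 2 and 3, against 38.9, 16.9 and 17.6 CPM in DMSO replicates 1, 2 and 3. Replicate 1 was highest in each group, so the groups overlapped, although each WM-1119 library lay above the DMSO library of its number. The region differed by 0.45 ± 0.26 on the log2 scale (SE; limma adjusted p = 0.397), against a median of 0.03 in regions of its strength. Leaving out single libraries gave 0.21, without WM-1119 replicate 1, up to 0.83, without DMSO replicate 1. MX2 and MX1 encode GTPases that block incoming viruses. MX2 held 20.5, 20.2 and 12.7 CPM with WM-1119, against 27.8, 20.8 and 14 CPM with DMSO, and MX1 averaged 14.9 ± 1.41 CPM with WM-1119 and 14.7 ± 2.33 CPM with DMSO (SD, n = 3 each). Neither gene separated the groups.

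Among the membrane restriction factors BST2 was strong and the IFITM genes were near the limit of detection. BST2, also called tetherin, holds budding virus at the cell surface. It had 76.2, 56.4 and 60.4 CPM in WM-1119 replicates 1, 2 and 3, against 91.8, 73.2 and 60.7 CPM in DMSO replicates 1, 2 and 3. The groups overlapped, and the difference from regions of its strength was -0.38 on the log2 scale. IFITM1 and IFITM2 belong to a family that hinders the fusion of virus with the cell. IFITM1 held 1.54, 0.30 and 1.02 CPM with WM-1119, against 2.78, 3.08 and 2.01 CPM with DMSO, and all WM-1119 libraries lay below all DMSO libraries. Its log2 change of -0.93 ± 0.57 (SE) did not pass (limma adjusted p = 0.406), regions of its strength had a median of -0.55, and DMSO replicates 1 and 2 had 2 and 4 reads. IFITM2 held 2.20, 2.80 and 3.31 CPM with WM-1119, against 2.78, 3.08 and 2.81 CPM with DMSO, with overlap.

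PARP9, DTX3L and PARP14 lie together on chromosome 3. PARP9 and DTX3L act as a pair in ADP-ribosylation and ubiquitylation, and their shared region held 57.5, 50.1 and 57.9 CPM in WM-1119 replicates 1, 2 and 3, against 48.7, 50.8 and 50.7 CPM in DMSO replicates 1, 2 and 3. WM-1119 replicate 2 lay within the DMSO values. PARP14, a mono-ADP-ribosyltransferase, held 50.4, 41.3 and 42.0 CPM with WM-1119, against 26.4, 37.0 and 35.7 CPM with DMSO. Every WM-1119 library of PARP14 lay above every DMSO library. The log2 change of PARP14 was 0.43 ± 0.21 (SE; limma adjusted p = 0.372, unadjusted p = 0.0482), against a median of 0.12 in regions of its strength. With 1 library left out the change ran from 0.28, without DMSO replicate 1, to 0.52, without DMSO replicate 2. The unadjusted limma p then ran from 0.0245, without DMSO replicate 3, to 0.188, without WM-1119 replicate 1. In edgeR the unadjusted p was 0.0863.

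SAMD9 and SAMD9L, neighbours on chromosome 7 whose proteins restrict growth and poxvirus replication, had a wide spread between DMSO libraries. SAMD9 held 7.49, 5.50 and 6.85 CPM in WM-1119 replicates 1, 2 and 3, against 20.9, 17.7 and 3.61 CPM in DMSO replicates 1, 2 and 3. Its log2 change of -0.71 ± 0.45 (SE) did not pass (limma adjusted p = 0.414), and without DMSO replicates 1 and 2 it was 0.71. Regions of the same strength as SAMD9 had a median of -0.22. SAMD9L held 12.3, 6.20 and 6.14 CPM with WM-1119, against 19.5, 13.9 and 5.21 CPM with DMSO. DMSO replicates 1 and 2 were high and DMSO replicate 3 was below every WM-1119 library at both genes. TRIM22, an antiviral ubiquitin ligase of the tripartite motif family, held 9.47, 10.7 and 10.8 CPM with WM-1119, against 13.9, 14.6 and 9.76 CPM with DMSO, and overlapped.

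Of the remaining members XAF1 and IFI35 were intermediate and IFI6 weak. XAF1, a partner of the apoptosis inhibitor XIAP, held 29.9, 26.2 and 28.9 CPM in WM-1119 replicates 1, 2 and 3, against 33.4, 37.0 and 27.1 CPM in DMSO replicates 1, 2 and 3. IFI35 held 17.8, 17.7 and 19.0 CPM with WM-1119, against 15.3, 18.5 and 15.9 CPM with DMSO. IFI6, an interferon-induced membrane protein gene, held 1.10, 1.90 and 1.81 CPM with WM-1119, against 5.56, 3.85 and 1.2 CPM with DMSO. The groups overlapped at all 3 genes. The log2 change of IFI6 was -0.68 ± 0.58 (SE; limma adjusted p = 0.503), against a median of -0.53 in regions of its strength. Without DMSO replicates 1 and 2 the IFI6 change was 0.23.

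**Figure D5:**
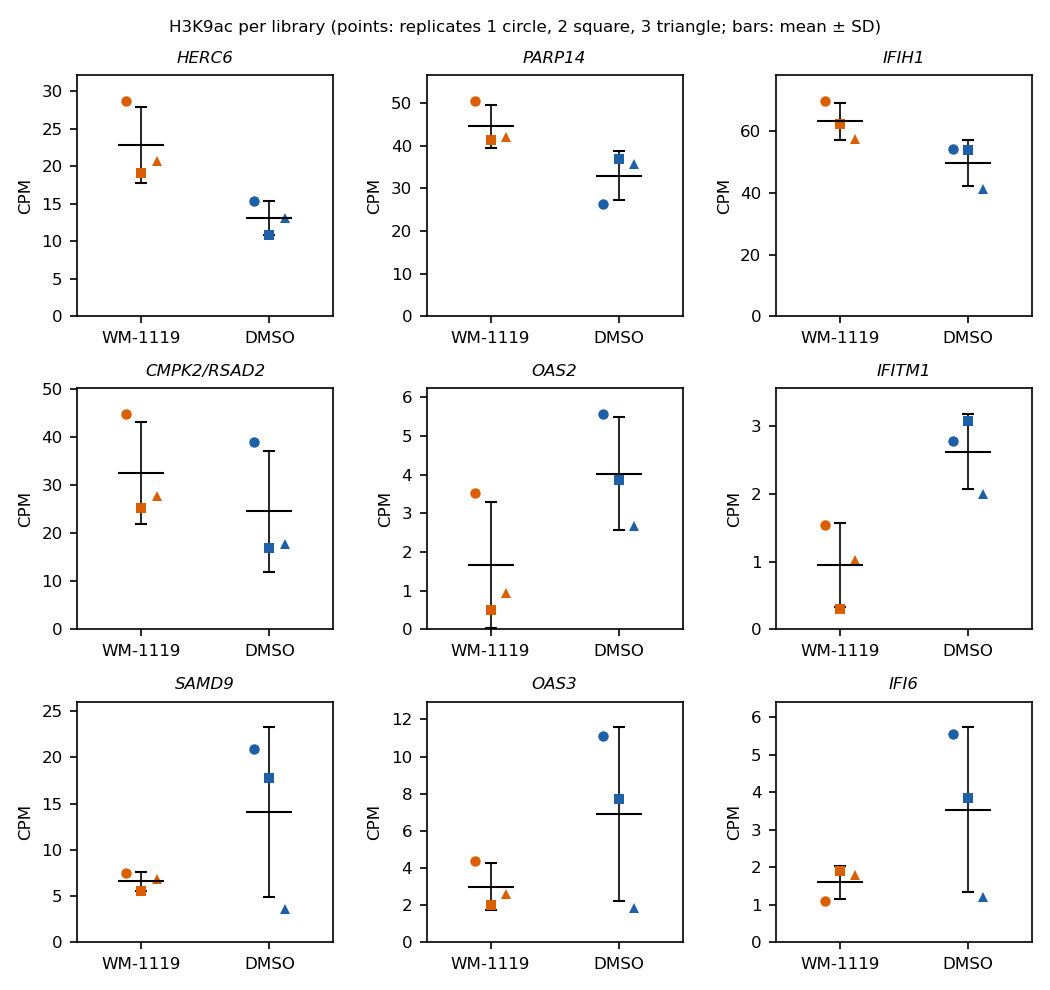
H3K9ac in CPM in each WM-1119 library (orange) and DMSO library (blue) at the regions of the members with the smallest limma p in each direction, with mean ± SD in black. At HERC6, PARP14 and IFIH1 every WM-1119 point lies above every DMSO point, at IFITM1 every one lies below, and at SAMD9, OAS3 and IFI6 DMSO replicate 3 lies apart from DMSO replicates 1 and 2.

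The summed signal of the members showed which libraries carried the difference in weak regions. The 9 members under 5 CPM summed to 30.4, 14.9 and 18.2 CPM in WM-1119 replicates 1, 2 and 3, against 45.9, 34.7 and 16.8 CPM in DMSO replicates 1, 2 and 3. DMSO replicates 1 and 2 were highest and DMSO replicate 3 lay among the WM-1119 libraries, as they did in the share of signal in weak regions given above. The part of that share in the values of weak members was not tested. The 12 members of at least 20 CPM summed to 620, 508 and 540 CPM with WM-1119, against 559, 521 and 501 CPM with DMSO, and overlapped.

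Members with and without the response element core were also set side by side. The 15 regions of members with the core in the window had a median of 10.6 CPM per kb and a median log2 change of -0.21. The 11 regions of members without it had 19.1 CPM per kb and 0.11. The PARP9 and DTX3L region counts in both, since only the DTX3L window holds the motif. Against regions of the same mean the 2 sets had median differences of 0.01 with the motif and -0.02 without it, as a description with no test.

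Other genes of the interferon pathway were stronger than the members. Of 50 such genes 37 had a region by the same rule and 35 of these were tested, with a median of 74.1 CPM and of 30.3 CPM per kb. TLR7 and TLR8 were under 1 CPM, and none of the 10 interferon genes, nor IFI16, AIM2 or TRIM28, had a region. None of the 35 passed, where 0.0603% of all regions did. By limma's unadjusted p at 0.05 there were 7 higher and 1 lower, against 9.50% and 1.81% of other coding gene regions and 2.58% and 10.8% of all regions. In edgeR there were 0 either way, and 0 after adjustment. By sign 24 were higher and 11 lower, with a median log2 change of 0.17, against 67.2% higher and a median of 0.12 over other coding gene regions. All WM-1119 libraries lay above all DMSO libraries in 8 of the 35 and below in 1. The shares were 13.4% and 3.25% of other coding gene regions and 3.76% and 13.2% of all regions. Other coding gene regions were weaker, with a median of 53.4 CPM. Those of at least 20 CPM, a class that not all of the 35 reach, were higher by sign in 80.7%. In that class 12.2% were higher and 0.872% lower by limma's unadjusted p at 0.05. All WM-1119 libraries lay above all DMSO libraries in 16.9% of the class and below in 2.16%. Without DMSO replicate 3, 17 of the 35 passed, 14 higher and 3 lower. That fit called 43.9% of all regions and 27.8% of other coding gene regions, and the directions among the latter were not counted.

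IL10RB, a receptor chain shared by interferon lambda and IL-10, had the smallest p. It held 69.3, 80.8 and 83.7 CPM in WM-1119 replicates 1, 2 and 3, against 48.7, 42.4 and 60.7 CPM in DMSO replicates 1, 2 and 3, and differed by 0.63 ± 0.19 on the log2 scale (SE; limma adjusted p = 0.268). It passed without DMSO replicate 3 (limma adjusted p = 0.00639, in a range over all alternatives of 2.26e-30 to 0.865). TBK1, a kinase that activates IRF3, held 81.5, 70.1 and 72.5 CPM with WM-1119, against 57.0, 50.8 and 46.0 CPM with DMSO, a log2 change of 0.54 ± 0.19 (SE; adjusted p = 0.321 in limma). IRF5, a transcription factor downstream of Toll-like receptors, held 75.3, 88.5 and 95.2 CPM with WM-1119, against 54.2, 56.2 and 75.1 CPM with DMSO, a log2 change of 0.48 ± 0.18 (SE; adjusted p = 0.337 in limma). The groups did not overlap at any of these 3 genes, with IRF5 closest to overlap. The 3 genes with the smallest p among those lower in WM-1119 were the phosphatase gene PTPN6, the transcription factor gene IRF4 and the DNA sensor gene TLR9, with log2 changes of -0.43 ± 0.19, -0.77 ± 0.58 and -0.54 ± 0.42 (SE) and limma adjusted p of 0.354, 0.466 and 0.475. The IRF4 and TLR9 regions were weak, with means of 2.26 and 8.54 CPM. Other coding gene regions under 5, of 5 to 20 and of at least 20 CPM had median log2 changes of -0.45, -0.22 and 0.17. The PTPN6 region, which lies over the end of the gene with the higher coordinate, averaged 58.8 ± 9.44 CPM with WM-1119 and 81.6 ± 28.1 CPM with DMSO (SD, n = 3 each), where DMSO replicate 1 alone had 114 CPM.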

How the data were processed

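H3K9ac was compared between 3 WM-1119 and 3 DMSO libraries, with groups and replicate numbers as in the titles. Bowtie2, SAMtools, MACS2, bedtools and hg38 are named per the submitters' processing notes. Versions, how regions were merged and what was done with duplicates are not given in the sources used here. In the table the authors named the deposited values TPM, but they are CPM: per the file headers there is 1 column per library, each sums to 1000000, and values of up to 100 reads lie within 0.02 reads of a whole number of steps for 100% of values. The step of WM-1119 replicate 2 is close to a round value, so its reads were not used in count tests.

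Starts were treated as counted from 0. Gene ends came from the RefSeq table and promoter windows from the RefSeq promoter table (GRCh38.p14). Treatment was the only term in limma 3.58.1 (R 4.3.3; robust eBayes with a trend), which took log2(CPM + 1) of all regions whose mean reached 1 CPM. The design had assumed TPM, and CPM took the same test. edgeR 4.0.16 was run on reads of 5 libraries. Other steps used scipy 1.17.1, numpy 2.4.6, pandas 2.3.3 and matplotlib 3.10.9 in Python 3.11.15. Values in every library are given for the 3 strongest members of each role and the 5 members with the smallest p in each direction. Other members are given by means or ranges. Of the other pathway genes the 3 with the smallest p in each direction are named, and 1 further gene of the rule is not reported here. The members and lists were chosen with earlier results of these data known. The libraries were checked for copies: every pair with recovered reads differed by more than sampling noise (the lowest ratio of chi-square to its degrees of freedom was 1.55).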

Additional observations from a re-analysis of the deposited data

How the results depend on the processing

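Over all regions 27 passed, and the count was 2 above a mean of 10 CPM, 1 with quantile normalization, 2 with median centring, 1 with cyclic loess, 496 with a replicate block, 0 for limma without trend and robust (33 higher and 4903 lower by the unadjusted p at 0.05), 34995 with array weights, 0 in edgeR (350 higher and 1773 lower at that level) and 0 to 19637 with 1 library left out. Of the 33 member regions 0 passed, apart from 23 with array weights (78.2% of all regions) and 0 to 10 with 1 library left out. Of the other pathway genes 0 passed, apart from 1, IL10RB, with the replicate block, 27 with array weights and 0 to 17 with 1 library left out. The median over members of -0.20 became 0.10 with quantile normalization, 0.57 with median centring and 0.25 without DMSO replicates 1 and 2. The median difference from regions of the same mean, -0.08, became 0.087 without those 2 libraries. With 1 library left out these medians ran from -0.33 to -0.04 and from -0.083 to 0.0092. The cause was not tested. The estimation of array weights stopped before it reached its tolerance. Median centring raised the log2 changes of all regions by the same amount, to a median of 0.30, and turned SAMD9 to 0.064, IFI6 to 0.094, PTPN6 to 0.35, TLR9 to 0.23 and IRF4 to 0.0047. Quantile normalization turned IFI6 to 0.057 and TLR9 to 0.083, cyclic loess turned them to 0.031 and 0.0050, and edgeR turned PTPN6 to 0.14. Without DMSO replicates 1 and 2 OAS3 was 0.43, SAMD9 0.71, IFI6 0.23 and IRF4 0.22. The labels do not say whether the replicate numbers pair the samples, and the main fit did not pair them. The deviations of same-numbered libraries correlated at 0.22, 0.05 and 0.33. Of the 6 libraries 5 correlated best with their own number, a hint from the data and not from the design. Depth limits the weak members: the 9 regions under 5 CPM held 2 to 8 reads each in DMSO replicate 1.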
